A study of Mus musculus with 30 samples.

Results

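Expression of 10 genes of insulin signalling and glucose uptake was examined in the left ventricle of mice given amyloid beta or an antibody against it. The genes encode the insulin receptor (*Insr*), its docking proteins (*Irs1* and *Irs2*), the kinase AKT2 (*Akt2*) and its targets AS160 (*Tbc1d4*) and FOXO1 (*Foxo1*). The remaining members encode the glucose transporters GLUT4 (*Slc2a4*) and GLUT1 (*Slc2a1*) and the hexokinases HK1 (*Hk1*) and HK2 (*Hk2*). They were taken by name from both count tables, and all 10 were found, among 49671 genes in the peptide study and 55263 genes in the antibody table.

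All mice were wild type C57BL6J males, 30 in all, and each library came from 1 mouse. In the peptide study, 7 mice received recombinant human Aβ42 and 7 received a scrambled form of the peptide, ScrAβ42, by daily intraperitoneal injection for 4 weeks from 12 weeks of age. The sample labels give a dose of 1 mg per day, whereas the study's methods give the dose in micrograms. The question was whether raised circulating Aβ42 changes the heart. In the antibody study, 8 mice received the Aβ neutralising antibody 3D6 and 8 received an isotype control antibody by weekly intraperitoneal injection. The methods describe these mice as fed a high-fat diet and fasted before tissue collection, whereas the series text says that they had been given Aβ42. Their labels give a starting age of 12 weeks, and the methods start the diet after a first echocardiography at that age. The protocols describe some peptide mice killed at the end of a glucose tolerance test and others killed after echocardiography. The labels do not say which of them gave these hearts, and the study's text points to the experiment with insulin and glucose tolerance tests.

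Insulin binding to its receptor leads to tyrosine phosphorylation of IRS1 and IRS2, which recruit PI3 kinase and so activate AKT. AKT2 phosphorylates AS160, which releases the brake on the movement of GLUT4 to the surface of cardiac muscle cells, and it keeps FOXO1 out of the nucleus. Hexokinases then trap the glucose as glucose 6-phosphate. HK2 accompanies GLUT4 in insulin-responsive muscle, and HK1 and GLUT1 serve basal uptake. Much of this pathway is controlled by phosphorylation and by movement of proteins, which counts of RNA do not measure.

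The genes furthest from their controls in any comparison were *Irs1* and *Irs2*, and the 250 bases before the transcription start of each are shown because they share a motif. *Irs1* lies at chr1:82233101-82291416 and *Irs2* at chr8:10984681-11008458, both on the minus strand of GRCm38. The upstream windows are those of RefSeq on GRCm38.p6, chr1:82291440-82291689 and chr8:11008930-11009179. They are written 5′ to 3′ on the gene's strand, and they end at RefSeq's transcription starts, which lie upstream of the gene ends given above. Capitals mark the E-box CACGTG, the letters read by basic helix-loop-helix factors.
Irs1: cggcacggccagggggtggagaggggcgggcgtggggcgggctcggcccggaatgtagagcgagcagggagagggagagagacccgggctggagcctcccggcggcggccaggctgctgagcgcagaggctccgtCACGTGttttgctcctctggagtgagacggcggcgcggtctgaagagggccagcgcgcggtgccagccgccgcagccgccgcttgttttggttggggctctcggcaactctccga
Irs2: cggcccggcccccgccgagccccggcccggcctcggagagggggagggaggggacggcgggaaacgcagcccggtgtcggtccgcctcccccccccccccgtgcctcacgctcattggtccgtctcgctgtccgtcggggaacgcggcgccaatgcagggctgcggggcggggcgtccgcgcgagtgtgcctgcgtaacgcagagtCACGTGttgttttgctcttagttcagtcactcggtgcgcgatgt

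The E-box begins 115 bases before the RefSeq start of *Irs1* and 44 bases before that of *Irs2*. It was searched on both strands and is present in 6.02% of the 32851 promoter windows of the same length. Of the 10 genes, 8 had a window in the table, with 12 windows in all, and *Irs1* and *Irs2* were the only ones with the E-box. Both copies lie within the run GTCACGTGTT, a longer motif looked for after the sequences had been seen, which 0.0700% of the windows hold on either strand. The core letters bound by FOXO factors, GTAAACA, were searched in the same way. They were absent from all 12 windows and present in 3.17% of windows overall. These matches describe letters only, since binding was not measured.

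The libraries were made from total RNA. Total counts were 4478991 to 6015767 per heart after peptide and 6397192 to 8310478 after antibody treatment. Levels are given as CPM, the count of a gene relative to its library's total, with TMM scaling within each study. The 8 ventricular markers summed to at least 42550 CPM in every heart, of which *Myh6*, a myosin that atrial muscle also makes, gave at least 23727 CPM in the peptide study. Several libraries differed from the rest of their study. In 1 Aβ42 heart the ventricular myosin light chains *Myl2* and *Myl3* were at 804 and 737 CPM, beside lowest ScrAβ42 values of 3684 and 2745 CPM, and this heart had the lowest *Irs2* and *Slc2a4* and the highest *Foxo1* of its group. Markers of atrial muscle summed to 12.4 to 8417 CPM with Aβ42 and 3.82 to 3665 CPM with ScrAβ42, and all 5 of them were higher on average with Aβ42. Adipocyte markers summed to 0.595 to 640.0 CPM with Aβ42 and 0.194 to 86.8 CPM with ScrAβ42. All 5 red cell markers were lower on average with Aβ42, with a median sum of 1519 CPM beside 3317 CPM, as were all 6 skeletal muscle markers, at 37.4 beside 56.6 CPM. In the antibody study, 4 hearts had an excess of long over short transcripts: mouse 8 of the control group and mice 4, 7 and 12 of the 3D6 group. The excess was measured as an index, the mean log2 CPM deviation of genes with transcripts over 5000 bases minus that of genes under 1500 bases. It was 0.50 to 0.62 in these hearts, and the highest value in the peptide study was 0.243. The index was above 0 in all 7 hearts of mice 3 to 15 and below 0 in all 9 hearts of mice 16 to 24, and the labels do not say what the numbers mean. In such bulk tissue, fewer cells of a type and less RNA per cell cannot be told apart.

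Per length of transcript, *Slc2a4* was the most abundant of the 10 genes in both studies. Its mean was 154 CPM per kilobase over the 14 hearts of the peptide study and 110.6 CPM per kilobase over the 16 hearts of the antibody study. In neither study did its range overlap that of the next gene. *Hk2* followed in the peptide study at 60.9 CPM per kilobase and was above *Hk1* in all 14 hearts. *Hk1*, *Insr*, *Akt2* and *Tbc1d4* then formed a group of 30.6 to 35.3 CPM per kilobase with overlapping ranges. This grouping depends on the length used. Per longest annotated transcript, ScrAβ42 means were 21.9 for *Akt2* and 23.2 for *Tbc1d4*, beside 32.0 for *Hk1* and 33.7 for *Insr*. The transcripts of *Irs2* (7.51 CPM per kilobase), *Slc2a1* (6.59), *Foxo1* (3.90) and *Irs1* (1.73) were scarcer. *Irs1* was the lowest gene, and its range of 1.02 to 2.69 CPM per kilobase did not overlap that of *Foxo1*.

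**Figure D1:**
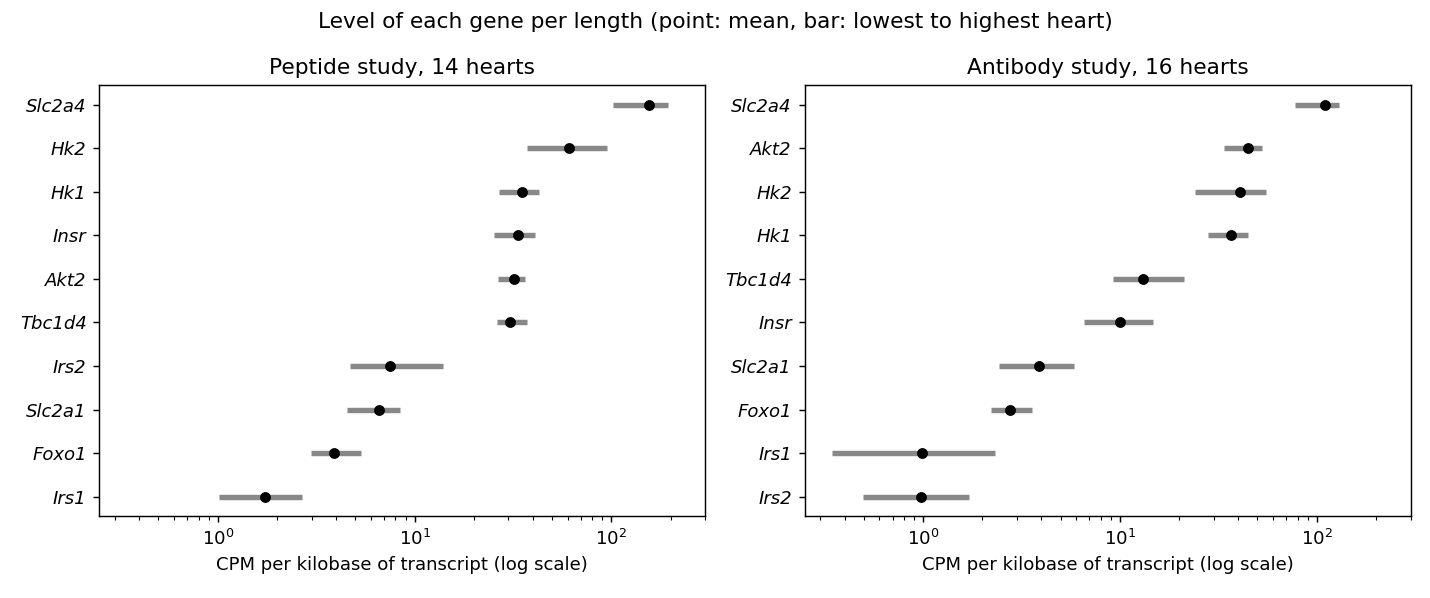
Mean level (points) and lowest to highest heart (bars) of each gene in CPM per kilobase of transcript on a log axis, for the peptide study (14 hearts) and the antibody study (16 hearts). *Slc2a4* stands alone at the top in both studies, and *Irs1* is at 1.73 (peptide) and 0.986 (antibody) CPM per kilobase.

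In the antibody study, *Akt2*, *Hk2* and *Hk1* were close to each other, with means of 44.6, 40.8 and 36.8 CPM per kilobase and overlapping ranges. Their order depends on the length used. Per longest annotated transcript, control antibody means were 28.5 for *Akt2*, 39.3 for *Hk2* and 34.8 for *Hk1*. *Tbc1d4* had a mean of 13.2 CPM per kilobase and *Insr* of 10.03, and their ranges also overlapped. *Irs1* and *Irs2* were lowest, at 0.986 and 0.976 CPM per kilobase, and were not separable, since *Irs1* was the higher of them in 6 of 16 hearts. The tables were normalised separately and the studies differ in diet and handling, so levels were not tested between them.

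Aβ42 was compared with ScrAβ42 to see whether the cardiac insulin pathway differed after weeks of raised peptide. *Irs1* and *Irs2*, the docking proteins of the receptor, had lower mean levels with Aβ42, by 36.0% and 30.1%. Mean levels of the other 8 genes differed by -10.6% (*Hk2*) to 10.4% (*Slc2a1*), and their 95% intervals held 0. With Benjamini-Hochberg adjustment of edgeR's quasi-likelihood test, none of the 10 genes passed an adjusted p of 0.05, nor did any of the 11985 genes tested (0%). At an unadjusted p under 0.05 there were 2 of the 10 genes, *Irs1* and *Irs2*. Of all genes tested, 6.51% passed that threshold, 2.92% lower and 3.59% higher. Of the 10 genes, 3 were higher and 7 lower with Aβ42, while 50.5% of all genes were higher and 49.5% lower. With the atrial markers in the fit, 5 were higher, since *Slc2a4* (0.14), *Insr* (0.13), *Akt2* (0.087), *Hk2* (0.066), *Tbc1d4* (-0.013) and *Hk1* (-0.038) changed sign. Of all 11985 genes, 5885 were higher in that fit. Without the atrial markers in the fit, the members had a median log2 fold change of -0.06 beside 0.0015 over all genes. DESeq2 called 12 genes in all at an adjusted p of 0.05, none of them among the 10, and limma-voom called 0.

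*Insr* ranged from 237 to 383 CPM (median 321) with ScrAβ42 and from 238 to 339 CPM (median 324) with Aβ42. The groups overlapped throughout. Their log2 fold change was -0.03 (95% interval -0.28 to 0.21).

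*Irs1* couples the receptor to PI3 kinase. With ScrAβ42 it was 14.7 CPM in the lowest heart, 19.3 CPM at the median and 24.6 CPM in the highest. With Aβ42 the lowest heart had 9.31 CPM, the median was 10.8 CPM and the highest heart had 19.1 CPM. All 7 Aβ42 hearts lay below the ScrAβ42 median, and 6 of 7 lay below every ScrAβ42 heart. The exception was the heart at 19.1 CPM. The means were 12.3 ± 3.44 CPM with Aβ42 and 19.3 ± 3.18 CPM with ScrAβ42 (SD, n = 7 each), a fold of 0.640 (95% interval 0.508 to 0.807). On the log2 scale the change was -0.64 with a standard error of 0.16, with an adjusted p of 0.551 in edgeR's quasi-likelihood test. By unadjusted p, *Irs1* ranked 15 of 11985 genes. Across the 14 hearts within groups, *Irs1* had r = 0.43 with the summed skeletal muscle markers and 0.26 with the red cell markers, and their part in the difference was not tested. These values rest on 45 to 127 counts per heart.

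The difference in *Irs1* kept its sign when any heart was left out, between -0.78 and -0.58, and was -0.55 when the atrial score entered the fit. This score is the mean of the scaled log2 levels of the atrial markers, and 5 of 7 Aβ42 hearts and 1 ScrAβ42 heart were above 0. The other 2 Aβ42 hearts had 9.31 and 19.1 CPM. With only these and the 6 ScrAβ42 hearts of low score, the log2 fold change was -0.49 (edgeR quasi-likelihood adjusted p = 1.00). The unadjusted p was under 0.05 in all 27 settings. DESeq2 gave an adjusted p of 0.0830 for *Irs1*, the lowest of all 27 settings.

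*Irs2*, the paralog that FOXO factors are known to induce in fasted tissue, ranged from 37.3 to 88.7 CPM with ScrAβ42, with a median of 53.6 CPM. It ranged from 29.8 to 53.8 CPM with Aβ42, with a median of 39.6 CPM. Here 6 of 7 Aβ42 hearts lay below the ScrAβ42 median, but only 3 lay below every ScrAβ42 heart, so the groups overlapped more than for *Irs1*. The means were 39.1 ± 8.62 and 55.9 ± 17.2 CPM (SD, n = 7 each). This was a log2 fold change of -0.52 (standard error 0.18, edgeR quasi-likelihood adjusted p = 0.693). Without the highest ScrAβ42 heart, at 88.7 CPM, it was -0.37. With the atrial score in the fit it was -0.28 and no longer under an unadjusted p of 0.05, and without the hearts of high score it was -0.30, also not. The unadjusted p was under 0.05 in the other 25 of 27 settings, and across hearts within groups *Irs2* correlated with that score at r = -0.56 (n = 14). The part of atrial tissue in this difference was not tested further.

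*Akt2* was between 81.6 and 112 CPM with ScrAβ42 and between 83.9 and 111 CPM with Aβ42, a log2 fold change of -0.04 (95% interval -0.21 to 0.13). *Tbc1d4* was between 142 and 171 CPM with ScrAβ42 and between 133 and 188 CPM with Aβ42, with a log2 fold change of 0.08 (-0.11 to 0.26). These were the narrowest intervals among the 10 genes.

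*Foxo1*, the transcription factor restrained by AKT, split the Aβ42 group. With ScrAβ42 it lay between 31.9 and 41.5 CPM with a median of 33.5 CPM. With Aβ42 it spanned 25.8 to 46.2 CPM with a median of 29.2 CPM. In 5 of 7 Aβ42 hearts the level was below every ScrAβ42 heart, and in the other 2, at 42.6 and 46.2 CPM, it was above every ScrAβ42 heart. Those hearts had the highest atrial marker scores of the study, 1.52 and 1.38. Another Aβ42 heart with a score of 0.97 had 27.3 CPM, and the ScrAβ42 heart with a score of 1.11 had 35.3 CPM. Across the 14 hearts within groups, *Foxo1* had r = 0.52 with the score. Only 2 Aβ42 and 6 ScrAβ42 hearts had a low score. *Foxo1* had a log2 fold change of -0.08 (95% interval -0.35 to 0.19). It was -0.26 with the atrial score in the fit and -0.28 in the hearts of low score, with adjusted p of 0.725 and 1.00 in edgeR's quasi-likelihood test. Smooth muscle markers summed to 80.8 to 342 CPM (median 184) with ScrAβ42 and 105 to 2016 CPM (median 145) with Aβ42, and correlated with *Foxo1* at r = 0.80 across the 14 hearts within groups.

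*Slc2a4* ranged from 274 to 487 CPM with ScrAβ42 and from 256 to 468 CPM with Aβ42, a log2 fold change of -0.07 (95% interval -0.36 to 0.21). *Slc2a1* ranged from 12.8 to 22.1 CPM and from 16.99 to 23.9 CPM, with a log2 fold change of 0.14 (-0.11 to 0.40). For *Slc2a1*, 3 of 7 ScrAβ42 hearts lay below every Aβ42 heart, whereas the medians were 18.9 and 19.04 CPM. For *Hk1* the range was 105 to 163 CPM with ScrAβ42 and 118 to 167 CPM with Aβ42 (log2 fold change 0.02, 95% interval -0.21 to 0.25). For *Hk2* it was 241 to 520.2 CPM and 206 to 434 CPM (log2 fold change -0.16, 95% interval -0.53 to 0.20). The *Hk2* value was -0.044 without the highest ScrAβ42 heart and -0.26 without the highest Aβ42 heart. The intervals of *Slc2a4* and *Hk2* reach down to folds of 0.781 and 0.694, so falls of that size were not excluded.

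**Figure D2:**
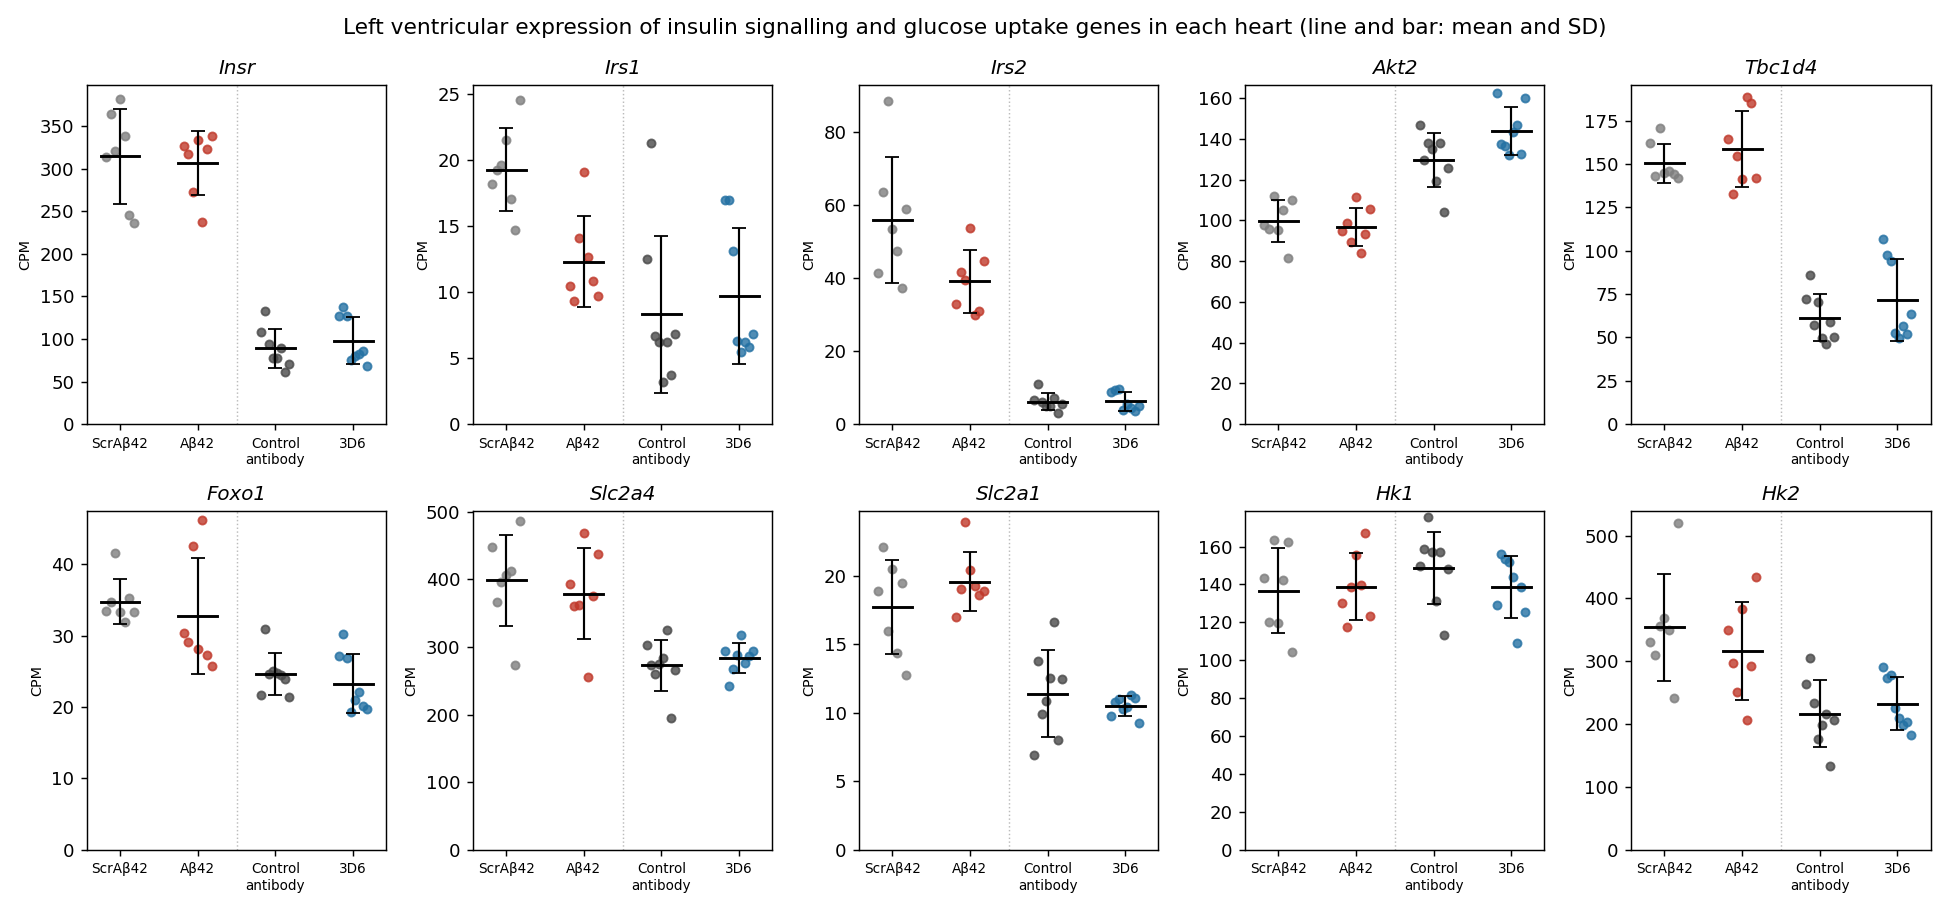
CPM of each gene in each heart, by group, with the mean (line) and SD (bar), linear axes from 0. With Aβ42, 6 of 7 *Irs1* values lie below all ScrAβ42 values. In the antibody groups, *Insr*, *Irs1*, *Irs2* and *Tbc1d4* are high in the same 4 hearts.

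In the antibody study, 3D6 was compared with the control antibody to see how neutralising Aβ changed these hearts. None of the 10 genes had an adjusted p under 0.05 in the same edgeR test, nor did any of the 12146 genes tested, and DESeq2 and limma-voom also called 0. At an unadjusted p under 0.05 there were 0 of the 10 genes. Of all genes, 3.66% passed that threshold, 2.36% lower and 1.29% higher. Of the 10 genes, 7 were higher and 3 lower with 3D6, while 47.2% of all genes were higher and 52.8% lower. The members had a median log2 fold change of 0.08 beside -0.01 over all genes. The intervals of all 10 genes held 0, and adjusted p-values were 0.944 to 0.991. Without the 4 hearts of long-transcript excess, which leaves 7 control and 5 3D6 hearts, 2 of the 10 genes were higher and the median was -0.08. Of the 12199 genes tested in that fit, 5513 were higher.

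*Irs1* ranged from 3.16 to 21.3 CPM (median 6.45) with the control antibody and from 5.43 to 17.02 CPM (median 6.55) with 3D6. Its means were 8.33 ± 5.94 and 9.71 ± 5.12 CPM (SD, n = 8 each). The 4 highest values, 13.1 to 21.3 CPM, belonged to the hearts of long-transcript excess, while the other 12 hearts lay between 3.16 and 12.5 CPM. For *Irs1* the log2 fold change was 0.23 (95% interval -0.53 to 0.98). It was -0.08 without those hearts, 0.59 without control mouse 8 alone and 0.07 without 3D6 mouse 7 alone. These values rest on 23 to 145 counts per heart.

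*Irs2* ranged from 3.15 to 10.9 CPM with the control antibody and from 3.50 to 9.67 CPM with 3D6, with 22 to 79 counts per heart. For *Irs2* the log2 fold change was 0.02 (95% interval -0.50 to 0.55), and -0.31 without the 4 hearts. The *Insr* level was 60.9 to 133 CPM with the control antibody and 67.7 to 137 CPM with 3D6 (log2 fold change 0.14, 95% interval -0.22 to 0.49, and -0.08 without them). Leaving out 3D6 mouse 7 alone gave 0.055 for *Insr*, and leaving out control mouse 8 alone gave 0.24.

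*Akt2* was the gene with the smallest p. With the control antibody it ranged from 104 to 147 CPM with a median of 132 CPM, and with 3D6 from 132 to 163 CPM with a median of 140.5 CPM. In 4 of 8 control hearts it was below every 3D6 heart, and in 2 of 8 3D6 hearts it was above every control heart. That was a log2 fold change of 0.15 (95% interval -0.02 to 0.32, adjusted p = 0.944 in edgeR's quasi-likelihood test). It was 0.14 without the 4 hearts and above 0 in all 31 settings, from 0.10 to 0.26. The unadjusted p was under 0.05 in 2 of these settings, with DESeq2 and without control mouse 3 (0.18).

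*Tbc1d4* ranged from 46.4 to 86.0 CPM with the control antibody and from 49.6 to 107 CPM with 3D6. For *Tbc1d4* the log2 fold change was 0.22 (95% interval -0.15 to 0.60), and -0.08 without the 4 hearts. *Foxo1* ranged from 21.4 to 31.0 CPM (median 24.5) and from 19.3 to 30.2 CPM (median 21.6), and 4 of 8 3D6 hearts lay below every control heart. Its log2 fold change was -0.08 (95% interval -0.30 to 0.15). Without the 4 hearts it was -0.22 (adjusted p = 0.999 in edgeR's quasi-likelihood test). In those 12 hearts *Foxo1* was the 1 gene of the 10 with an unadjusted p under 0.05, beside 2.77% of the 12199 genes tested in that fit.

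*Slc2a4* was 196 to 326 CPM with the control antibody and 243 to 318 CPM with 3D6, a log2 fold change of 0.06 (95% interval -0.14 to 0.25), and 0.0038 without control mouse 22. For *Slc2a1* the control hearts ranged from 6.89 to 16.6 CPM with an SD of 3.16 CPM, and the 3D6 hearts from 9.24 to 11.3 CPM with an SD of 0.701 CPM. All 8 3D6 hearts lay below the control median of 11.6 CPM, while 4 control hearts lay above and 2 below every 3D6 heart. The log2 fold change of *Slc2a1* was -0.12 (95% interval -0.41 to 0.18), and -0.020 without control mouse 19. *Hk1* was 113 to 175 CPM and 109 to 156 CPM (log2 fold change -0.10, 95% interval -0.31 to 0.10), and *Hk2* was 133 to 306 CPM and 183 to 291 CPM (0.10, -0.20 to 0.41). The *Hk2* value was -0.0034 without the 4 hearts of long-transcript excess, 0.032 without control mouse 22 alone and 0.19 without control mouse 8 alone. All 6 endothelial markers were lower on average with 3D6, 2 of them at an unadjusted p under 0.05, and their sum was 612 to 750 CPM with 3D6 and 641 to 994 CPM in controls. Within groups, over 16 hearts, that sum had r = -0.74 with *Slc2a4* and -0.65 with *Akt2*, both of which were higher with 3D6. Its part in these values was not tested.

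**Figure D3:**
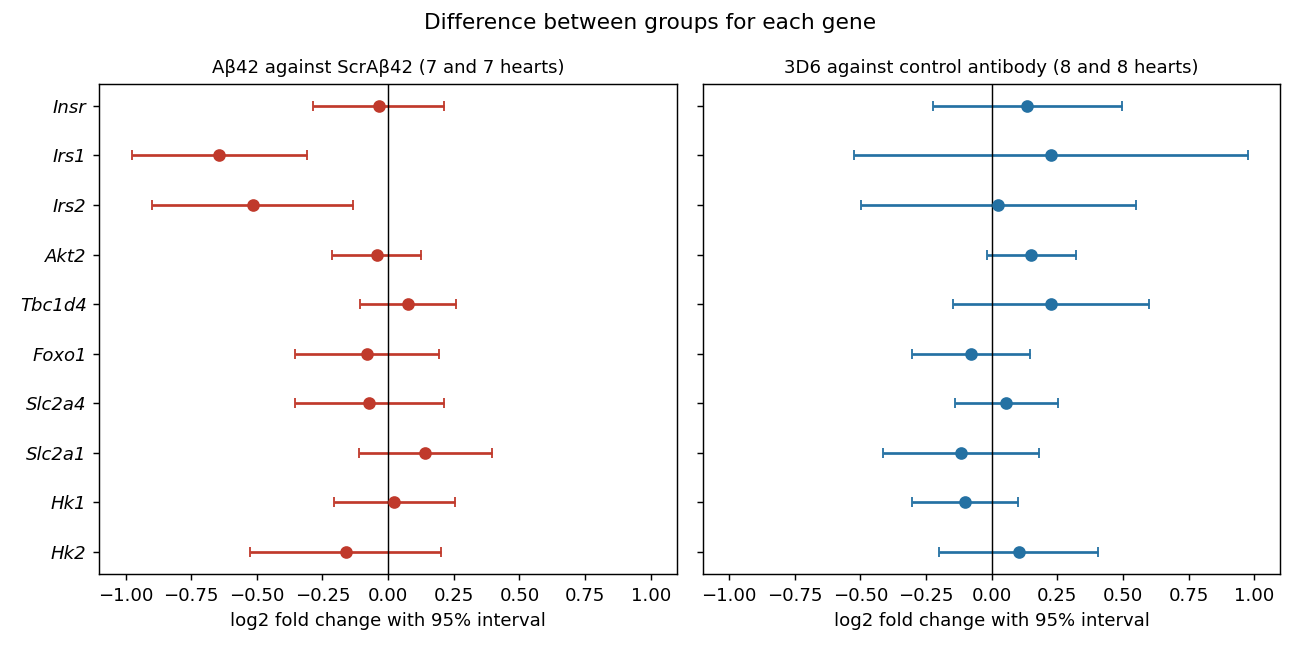
Log2 fold change (points) with its 95% interval (bars) for each gene, Aβ42 against ScrAβ42 (left) and 3D6 against control antibody (right). The intervals of *Irs1* and *Irs2* lie below 0 in the left panel, and those of the other 8 genes there, and of all 10 genes in the right panel, hold 0.

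The hearts with long-transcript excess stood apart in 6 of the 10 genes. In *Insr*, *Irs1*, *Irs2*, *Foxo1*, *Tbc1d4* and *Hk2* all 4 of these hearts exceeded all 12 others. The same was true of 6.77% of all genes tested and of 24% of the 2161 genes with transcripts over 5000 bases. The hearts had been set apart by an index of such long genes, so the split describes these 6 genes and is not a separate finding. *Insr* was 127 to 137 CPM in them and 60.9 to 109 CPM elsewhere, and *Tbc1d4* was 86.0 to 107 CPM and 46.4 to 71.8 CPM. Within groups, over 16 hearts, the r of these 6 genes with the index was 0.85 to 0.95. The 6 genes are those with transcripts of 5051 bases or more, and the other 4, of at most 3907 bases, had r between -0.02 and 0.52. *Slc2a4*, which has a short transcript, was 243 to 295 CPM in the 4 hearts and 196 to 326 CPM in the rest. The cardiac gene *Ryr2*, which also has a long transcript, correlated with *Insr* at r = 0.92 and with *Irs2* at 0.91, whereas the short *Tnni3* correlated at -0.87 and -0.82. The share of counts from mitochondrial genes had r between 0.46 (*Foxo1*) and 0.92 (*Hk2*) with the 6 genes, and between 0.08 (*Slc2a1*) and 0.59 (*Akt2*) with the other 4. In the peptide study the same 6 genes had r between -0.78 and 0.64 with the index.

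**Figure D4:**
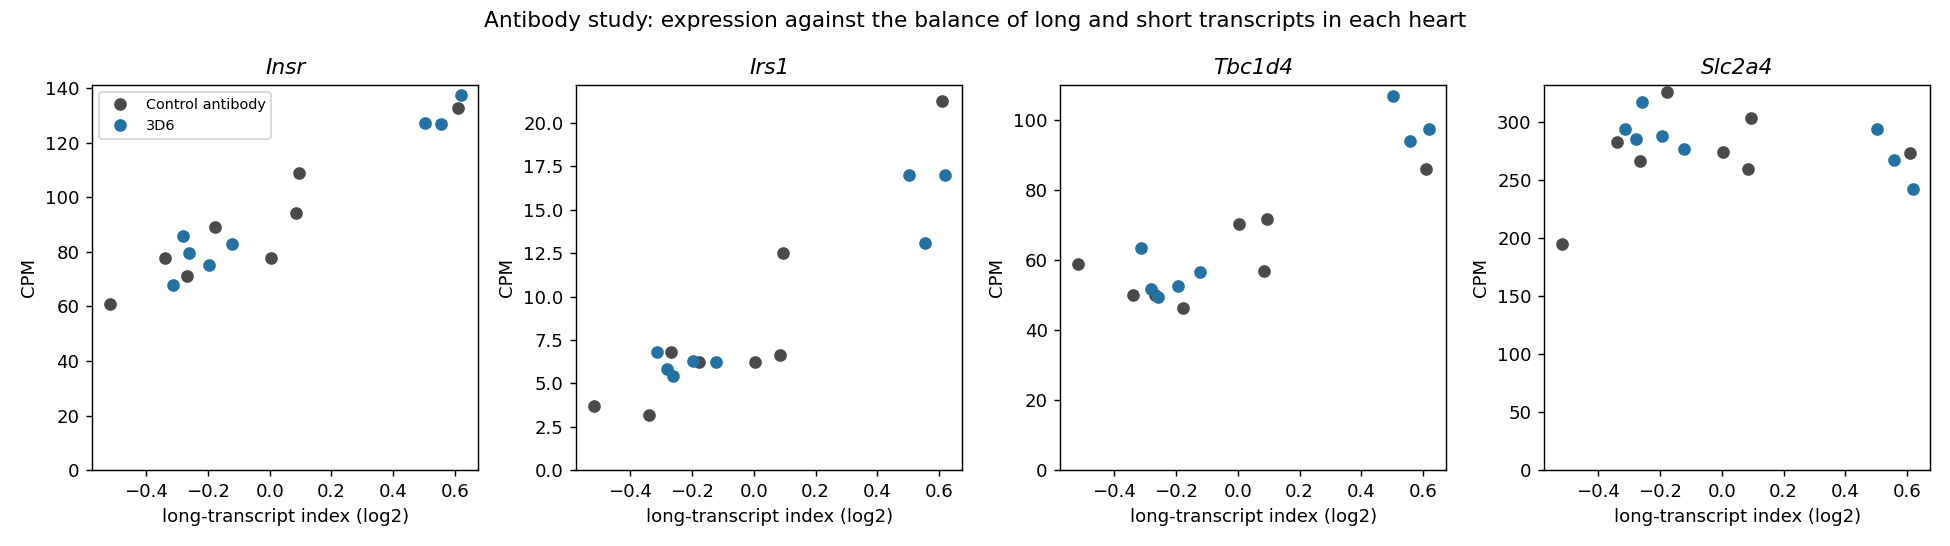
CPM of *Insr*, *Irs1*, *Tbc1d4* and *Slc2a4* in each of the 16 hearts of the antibody study against the long-transcript index (log2 scale), with groups by colour. The 4 hearts with an index of 0.50 to 0.62 (3 given 3D6, 1 control) have the highest *Insr* and *Tbc1d4*, and *Slc2a4* does not follow the index.

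Correlations among the 10 genes differed between the studies, as a description over hearts that also share their depth and composition. In the peptide study, *Slc2a4*, *Hk2* and *Akt2* varied together within groups over 14 hearts. The r was 0.90 for *Slc2a4* with *Hk2*, 0.84 for *Slc2a4* with *Akt2* and 0.84 for *Akt2* with *Hk2*. *Irs2* also followed *Akt2* (r = 0.76), while *Foxo1* went against *Hk2* (-0.64) and *Slc2a4* (-0.60). The summed ventricular markers correlated with *Hk2* at 0.94, *Slc2a4* at 0.93 and *Akt2* at 0.81, and the summed fibroblast markers with them at -0.87, -0.90 and -0.81. *Irs1* had r = 0.16 with the ventricular and -0.10 with the fibroblast markers. In that study 4 of 45 gene pairs exceeded r = 0.7. In the antibody study 12 of 45 pairs did, all of them among the 6 genes with long transcripts, with *Insr* and *Hk2* highest at 0.91. *Slc2a4* with *Akt2* was 0.67 there, and *Slc2a4* with *Hk2* 0.35.

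**Figure D5:**
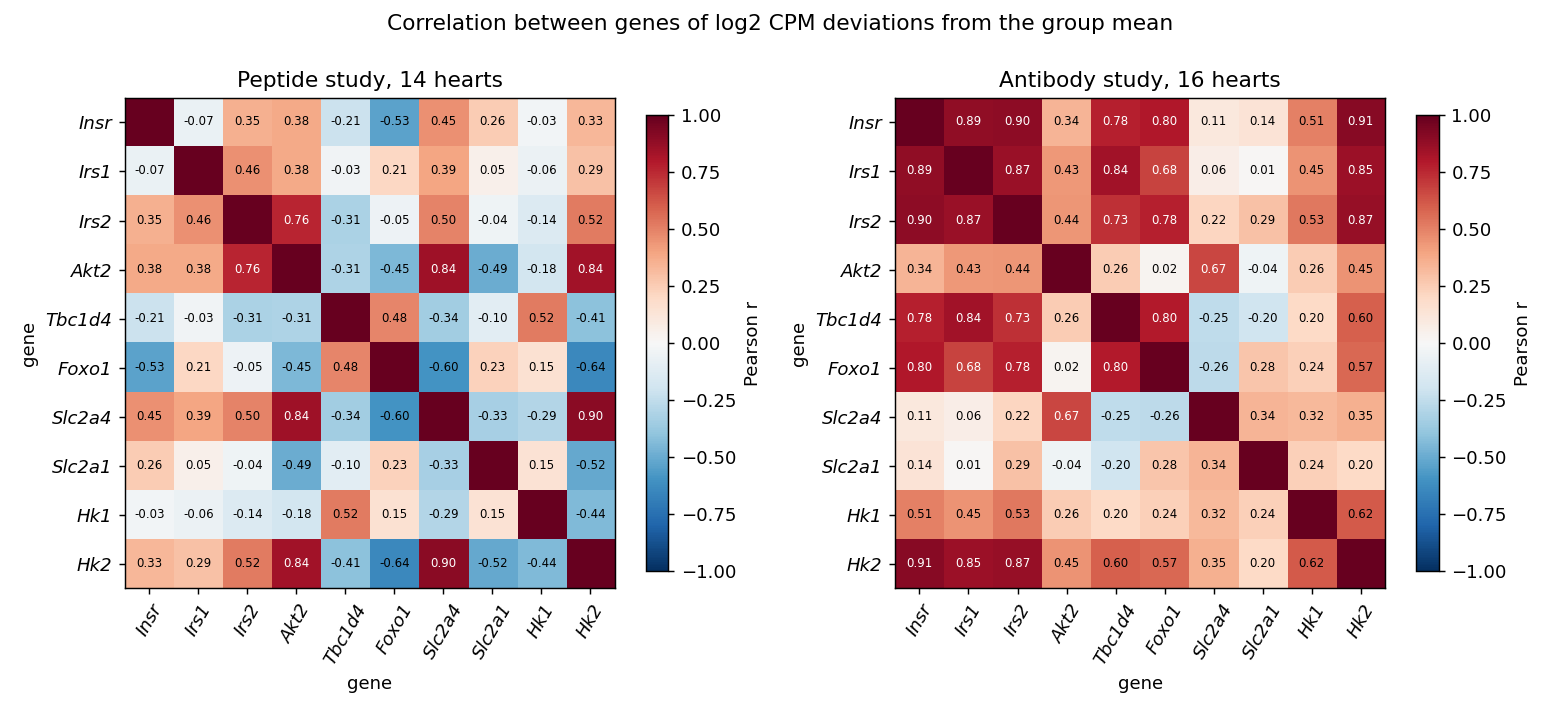
Pearson r between genes of log2 CPM deviations from the group mean, for 14 hearts (left) and 16 hearts (right), on a colour scale from -1 to 1. *Slc2a4*, *Akt2* and *Hk2* form the red block of the peptide study (0.84 to 0.90), and *Insr*, *Irs1*, *Irs2*, *Tbc1d4* and *Foxo1* are mutually positive in the antibody study.

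The genes whose pattern over hearts was most like each member were named by the smaller r of both studies, among 7847 genes. For *Slc2a4* these were the mitochondrial carrier *Slc25a11* (0.94) and the ATP synthase subunit *Atp5a1* (0.93), and for *Akt2* the mitochondrial kinase *Pink1* (0.86) and carnitine acetyltransferase *Crat* (0.85). *Insr* was close to *Tead1* (0.93), and for *Hk2* the genes were *Fam160a1* (0.94) and the translation termination factor *Gspt1* (0.93). *Foxo1* was most like the chromatin genes *Arid1a* (0.75) and *Rere* (0.74), and *Tbc1d4* most like *Cmtm4* and *Ttc3* (both 0.78). *Irs1* was nearest to *Elf2* and *Tob2* (both 0.74), *Irs2* to *Slc39a14* and *Nfix* (both 0.72), and *Hk1* to *Ankrd50* (0.73) and *Parm1* (0.72). *Slc2a1* had the weakest likeness, 0.60 with both *Trappc6b* and *Tmem159*.

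Only the antibody study counted transcripts. *Irs1*, *Irs2* and *Foxo1* had 1 transcript each in the table, and *Insr*, *Hk2* and *Slc2a4* were represented by a main coding transcript with 99.4%, 99.6% and 93.7% of their counts. *Hk1* was divided between Hk1-201 (57.2%) and Hk1-202 (42.4%). For *Slc2a1*, the coding transcript Slc2a1-201 took 53.1 ± 23.2% in controls and 60.5 ± 25.4% with 3D6 (SD, n = 8 each), and most of the rest was assigned to Slc2a1-204, annotated as subject to nonsense-mediated decay. For *Tbc1d4*, the longest coding transcript took 39.7 ± 13.9% in controls and 43.0 ± 17.5% with 3D6. The retained-intron transcript Tbc1d4-208, which covers the end of the gene at chr14:101442368-101463223, took 48.1 ± 19.03% and 42.6 ± 26.8%. For these transcripts of *Slc2a1* and *Tbc1d4*, the group means differed by less than the SD of either group.

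The shares too followed the long-transcript hearts. Slc2a1-201 had 77.4 to 100% of the *Slc2a1* counts in the 4 hearts and 22.1 to 64.2% in the other 12. Tbc1d4-208 had 4.72 to 28.3% in the 4 hearts and 19.6 to 72.0% in the others. For *Akt2*, Akt2-201 had 45.1 to 60.7% against 56.8 to 83.0%, and the r of its share with the index was -0.88 over 16 hearts. Transcript shares are estimates, since the transcripts of a gene overlap in sequence.

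Beyond the 10 genes, 65 other genes of the pathway were listed. With Aβ42, 5 of the 61 tested had an unadjusted p under 0.05 and all 5 were higher, 8.20% against 6.51% of all genes, and none passed after adjustment. The median log2 fold change was 0.03, with 33 higher and 28 lower. On the receptor side, *Igf1r*, the IGF1 receptor that also signals through IRS proteins, was 46.3 ± 9.08 CPM with ScrAβ42 and 61.0 ± 14.7 CPM with Aβ42 (SD, n = 7 each). Its log2 fold change was 0.40 (standard error 0.15, edgeR quasi-likelihood adjusted p = 0.702), and 0.22 with the atrial score in the fit.

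Among regulators of GLUT4 traffic, *Tbc1d1*, the paralog of AS160, ranged from 11.8 to 75.5 CPM with ScrAβ42 and from 10.1 to 230.2 CPM with Aβ42 (log2 fold change 1.74, standard error 0.68). Its value was -0.13 with the atrial score in the fit. *Sort1*, encoding the sorting receptor sortilin, had 0.88, and 0.03 with the covariate. The FOXO target *Ccng2* was at 0.27, and at 0.16 with the covariate. The lower genes with small p included *Mapkap1* of the mTORC2 complex (-0.13) and the exocyst gene *Exoc7* (-0.14), with adjusted p of 0.820 and 0.828 in edgeR's quasi-likelihood test. *Akt1* was at -0.19. The glucose-responsive *Txnip* was 923 ± 73.1 CPM with ScrAβ42 and 1013 ± 115 CPM with Aβ42 (log2 fold change 0.14), and *Pdk4*, the kinase that restrains pyruvate oxidation, was at -0.05.

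With 3D6, 1 of the 62 tested genes had an unadjusted p under 0.05, 1.61% against 3.66% of all genes. This was the transporter gene *Slc2a12*, at 4.12 ± 1.24 CPM in controls and 5.81 ± 1.45 CPM with 3D6 (SD, n = 8 each). Its log2 fold change was 0.50 (standard error 0.20, edgeR quasi-likelihood adjusted p = 0.944). The median over the 62 genes was 0.07, with 44 higher and 18 lower. With the first surrogate variable in the fit 35 of them were above 0, and with the long-transcript index 39. Of all 12146 genes, 6054 and 5850 were above 0 in these fits. *Grb14*, an inhibitor of the receptor, was at 0.19 and the SNARE regulator *Stxbp3* at 0.17. On the lower side were *Igf1r* (-0.18) and the syntaxin gene *Stx4a* (-0.15). *Tbc1d1* was at -0.37, *Akt1* at -0.03 and *Txnip* at 0.05.

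All 11 FOXO factors and targets in the list had a positive log2 fold change with 3D6, from 0.06 to 0.52 with a median of 0.15, and none had an unadjusted p under 0.05, while 47.2% of all genes were above 0. The list does not hold *Foxo1*, which was at -0.08. With the long-transcript index in the fit 10 of the 11 were above 0, and with the first surrogate variable 8. Of all 12146 genes, 5850 and 6054 were above 0 in these fits. The largest was *Pdk4*, at 180 to 796 CPM in controls and 239 to 1043 CPM with 3D6 (log2 fold change 0.52, standard error 0.30, adjusted p = 0.944 in edgeR's quasi-likelihood test). It was 0.32 with the long-transcript index as a covariate. With Aβ42, 4 of the 10 tested genes of that list were higher and 6 lower, with a median of -0.01. The hexokinase-like gene *Hkdc1* and *Hk3* were below the count filter in both studies.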

How the data were processed

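Left ventricular RNA of 30 mice was sequenced in 2 separate studies as stranded total RNA libraries. The authors trimmed the reads, mapped them to the GENCODE mouse transcriptome with Salmon on GRCm38, and deposited whole-number counts per Ensembl gene for the peptide study and estimated counts per transcript for the antibody study, neither normalised. Estimated counts were summed to genes through a GENCODE annotation of the same build but another release than the authors', which lists 99.2% of the transcripts, and rounded. Groups came from the sample labels, and 1 count column that matched no labelled mouse was not used.

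Following the study's methods, genes averaging fewer than 10 counts were dropped within each study. Groups were compared with edgeR 4.0.16 (TMM factors, quasi-likelihood test, two-sided, Benjamini-Hochberg adjustment over all genes tested). Standard errors and 95% intervals were calculated back from the fold change and the p-value. CPM used the total of the kept genes times the TMM factor, and log2 CPM used a prior count of 2. Levels per kilobase used the mean transcript length weighted by the counts of the antibody study, or the longest annotated transcript where stated. DESeq2 1.42.0, limma-voom (limma 3.58.1), sva 3.50.0, other scalings, filters, covariates and leaving out each mouse were alternatives. Alternatives with the long-transcript index (genes averaging at least 50 counts) as a covariate, or without hearts above 0.4 on this index or above 0 on the atrial score, and a block of neighbouring mouse numbers in the antibody study were added after the data were seen. The test was checked on simulated counts drawn separately for each gene. These hold no variation shared between genes, such as the atrial or long-transcript differences, so the check does not cover it. P-values weigh the difference between groups against the variation between these mice.

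The 10 genes, the lists of other pathway genes and of markers, and the rule for naming genes were chosen with earlier results of these data known. All 10 genes are named. Of the other pathway genes, the 3 higher and 3 lower genes with the smallest p in each contrast and *Txnip*, *Pdk4*, *Igf1r*, *Akt1* and *Tbc1d1* are named, and *Sort1*, *Hkdc1*, *Hk3* and the count of FOXO genes were added after their values were seen. For each member the 2 genes most like it are named, among genes with at least 50 counts in both studies. Some genes that these rules select are not reported here. Promoter windows were taken from RefSeq. Protein features listed at the outset were not computed.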

Additional observations from a re-analysis of the deposited data

Results flagged for a closer look

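In 40 sets of values, each 1 gene in 1 group, the gap of the highest or lowest heart to its neighbour exceeded the 95% limit of Dixon's test in 2. Chance gives about 1 in 20 such sets. Both were *Foxo1*. Among the ScrAβ42 hearts, 1 heart had 41.5 CPM and the next heart 35.3 CPM, and this heart also had the highest *Irs2*. Among the control antibody hearts, mouse 8 had 31.0 CPM and the next heart 25.02 CPM, and this was the control heart with long-transcript excess. The log2 fold change of *Foxo1* was -0.03 without the first heart and -0.02 without the second.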

How the results depend on the processing

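*Irs1* and *Irs2* were lower with Aβ42 in all 27 settings and *Foxo1* in all 27, and *Slc2a1* was higher in all. With 3D6, *Akt2* and *Slc2a4* were higher and *Foxo1*, *Hk1* and *Slc2a1* lower in all 31 settings, with *Slc2a4* at 0.0038 without control mouse 22 and *Slc2a1* at -0.020 without control mouse 19. For Aβ42, DESeq2 called 12 genes and leaving out 1 mouse 0 to 3, against 0. Genes at an unadjusted p under 0.05 numbered 1402 with the long-transcript index as covariate, 1252 with the mitochondrial share, 1475 with no filter, 505 without hearts of high atrial score and 609 to 1266 leaving out 1 mouse, against 780. For 3D6 they numbered 671 with the first surrogate variable, 939 with neighbouring mouse numbers as a block, 1168 with no filter, 270 without hearts of high atrial score and 256 to 765 leaving out 1 mouse, against 444.

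With Aβ42, 5 of the 10 genes were higher with the atrial score as covariate, 6 with the surrogate variable and 2 to 5 leaving out 1 mouse. Signs turned with the atrial score for *Slc2a4* (0.14), *Insr* (0.13), *Akt2* (0.087), *Tbc1d4* (-0.013), *Hk1* (-0.038) and *Hk2* (0.066). They turned with the surrogate variable for *Slc2a4* (0.083), *Insr* (0.0496), *Akt2* (0.036), *Hk1* (-0.025) and *Hk2* (0.021), and without hearts of high atrial score for *Akt2* (0.033) and *Tbc1d4* (-0.15). That last fit holds only 2 Aβ42 and 6 ScrAβ42 hearts. Leaving out 1 mouse gave -0.033 to 0.0703 for *Hk1*, -0.093 to 0.018 for *Insr* and -0.15 to 0.0040 for *Slc2a4*, and with no change of sign -0.26 to -0.044 for *Hk2*, -0.19 to -0.031 for *Foxo1*, -0.088 to -0.012 for *Akt2*, 0.029 to 0.11 for *Tbc1d4* and 0.076 to 0.20 for *Slc2a1*.

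With 3D6, 4 genes were higher with the surrogate variable, 4 without hearts of high atrial score, 2 without hearts of high long-transcript index, 3 with the mitochondrial share and 6 to 7 leaving out 1 mouse. The fit without hearts of high atrial score holds 5 control and 4 3D6 hearts. Signs turned with the surrogate variable for *Insr* (-0.0099), *Irs2* (-0.17) and *Hk2* (-0.0013), and without hearts of high index for *Insr* (-0.085), *Irs1* (-0.079), *Irs2* (-0.31), *Tbc1d4* (-0.0800) and *Hk2* (-0.0034). They turned with the index as covariate for *Irs1* (-0.0031) and *Irs2* (-0.17), with the mitochondrial share for *Insr* (-0.043), *Irs1* (-0.084), *Irs2* (-0.22) and *Hk2* (-0.058), without hearts of high atrial score for *Insr* (-0.047), *Irs1* (-0.10) and *Irs2* (-0.12), and with total counts for *Irs2* (-0.0075). Leaving out 1 mouse gave -0.094 to 0.19 for *Irs2*, and with no change of sign 0.12 to 0.31 for *Tbc1d4*, -0.14 to -0.025 for *Foxo1*, -0.15 to -0.055 for *Hk1* and 0.018 to 0.17 for the median of the 10 genes. The cause of these shifts was not tested. No mouse number occurs in both groups of a study, and the labels pair no mice. In the antibody study each 2 neighbouring numbers hold 1 mouse of each group, and a block of these, which the labels do not define, was fitted after the data were seen. The 10 genes kept their signs, none passed an adjusted p of 0.05 or an unadjusted p under 0.05, and 0 of all genes were called after adjustment by edgeR. Deviations from the group means correlated within these pairs at 0.40, 0.37, 0.30, -0.24, 0.29, 0.02, 0.22 and 0.14, in order of mouse number. Most of these values were positive, and they do not settle whether the numbers pair the mice. The block was kept as an alternative only, because the labels do not define it. Peptide numbers form no such pairs.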
